A study of Mus musculus with 15 samples.

Results

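The 10 keratin genes Krt4, Krt7, Krt8, Krt13, Krt17, Krt18, Krt19, Krt20, Krt23 and Krt80 were followed across 15 RNA-seq libraries of a mouse pancreatic cancer line. They were taken by symbol from tables of 55291 genes, which hold 54 genes named Krt and a number, so 44 other keratins stood outside the list. The list was in part selected on the DON comparison, where Krt13 had the lowest log2 fold change of the 13556 genes fitted. The values of the members after DON are therefore a description and carry no test.

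HY19636 is a primary murine line, isolated from a pancreatic ductal adenocarcinoma (PDAC) of a C57BL/6 mouse with engineered alleles, among them a floxed p53 allele and Cre driven by the pancreatic gene Ptf1a. The labels give all 15 samples the same genotype, which includes p53 mut. There were 5 groups of 3. Control cells grew in DMEM with serum, DON-treated cells received 25 uM DON for 24 h, and Gln-free cells were kept without glutamine (Gln) for 24 h. DON is a Gln analog that blocks enzymes which use Gln. Orthotopic HY19636 tumors came from female C57BL/6J mice that were 8 to 10 weeks old and were given vehicle or 3 mg per kg DRP-104, a prodrug of DON, daily for 2 cycles of 5 days on and 2 days off. About 40000 cells had been injected into the pancreas tail, and tumors were collected 21 days later. All groups derive from 1 line, and the tumors also contain cells of an immunocompetent host.

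Keratins are the intermediate filament proteins of epithelia. A filament is built from paired acidic type I and basic type II chains, so a cell that makes 1 type generally makes the other. Krt8 (type II) and Krt18 (type I) are the pair of simple epithelia, and Krt7 (type II) and Krt19 (type I) are added in ducts, which is why Krt19 is a standard marker of pancreatic duct cells and of PDAC. Krt20 is a type I keratin of the gut lining. Krt4 and Krt13 form the pair of stratified, noncornified mucosa such as the esophagus. Krt17 is a type I keratin of basal and wounded epithelium. Krt23 (type I) and Krt80 (type II) are less widely studied members.

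Of the members, 6 were type I and 4 type II. The gene coordinates deposited with the FPKM values match build GRCm38. On that build Krt13, Krt17, Krt19, Krt20 and Krt23 lie on chromosome 11 within 833 kb, and Krt4, Krt7, Krt8, Krt18 and Krt80 lie on chromosome 15 within 682 kb. Krt18 (chr15:102028216-102032026, plus strand) is the type I gene that sits in the type II cluster, 23.9 kb from Krt8 (chr15:101996711-102004342, minus strand). Krt13 spans chr11:100117327-100121566 on the minus strand.

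RefSeq start sites (GRCm38.p6) were held for 6 members: Krt7, Krt8, Krt13, Krt18, Krt20 and Krt23, with 7 promoters in all because Krt13 had 2. Krt4, Krt17, Krt19 and Krt80 had no entry. The 250 bases before the start are shown for Krt13, which had the lowest estimate after DON, for Krt20 and Krt7, which are further members with large differences, and for the neighbors Krt8 and Krt18, which are expressed as a pair but differed in size of response. Sequences run 5′ to 3′ on the gene's own strand. Capitals mark matches to TGANTCA, the AP-1 motif (searched on both strands over 250 bases before to 50 after the start), and to ATAAA, which is found in many core promoters (searched on the gene's strand from 40 bases before the start up to the base before it).
Krt13 (chr11:100121567-100121816, minus): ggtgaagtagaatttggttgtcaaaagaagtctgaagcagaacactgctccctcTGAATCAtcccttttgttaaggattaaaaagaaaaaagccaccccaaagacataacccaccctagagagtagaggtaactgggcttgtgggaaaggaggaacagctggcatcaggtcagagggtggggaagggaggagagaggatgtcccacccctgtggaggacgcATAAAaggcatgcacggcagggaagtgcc
Krt20 (chr11:99438154-99438403, minus): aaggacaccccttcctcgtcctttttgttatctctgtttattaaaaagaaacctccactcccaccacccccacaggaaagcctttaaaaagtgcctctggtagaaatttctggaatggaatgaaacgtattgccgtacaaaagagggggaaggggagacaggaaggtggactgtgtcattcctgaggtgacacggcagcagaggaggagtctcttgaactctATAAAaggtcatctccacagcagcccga
Krt7 (chr15:101412153-101412402, plus): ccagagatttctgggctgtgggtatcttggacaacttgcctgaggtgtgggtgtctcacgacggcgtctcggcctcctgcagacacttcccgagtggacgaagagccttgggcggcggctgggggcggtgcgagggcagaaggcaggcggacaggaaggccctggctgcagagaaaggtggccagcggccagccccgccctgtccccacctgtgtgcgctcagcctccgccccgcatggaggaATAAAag
Krt8 (chr15:102004343-102004592, minus): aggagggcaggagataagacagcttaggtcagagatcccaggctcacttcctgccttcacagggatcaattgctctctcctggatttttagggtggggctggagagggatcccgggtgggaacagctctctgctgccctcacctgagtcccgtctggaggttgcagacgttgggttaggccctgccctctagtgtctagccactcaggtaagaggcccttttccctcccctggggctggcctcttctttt
Krt18 (chr15:102027966-102028215, plus): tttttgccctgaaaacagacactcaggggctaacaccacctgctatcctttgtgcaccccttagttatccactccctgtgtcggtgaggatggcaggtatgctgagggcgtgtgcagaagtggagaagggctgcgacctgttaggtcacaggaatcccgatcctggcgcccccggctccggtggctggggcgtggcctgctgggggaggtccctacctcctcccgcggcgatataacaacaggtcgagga
The AP-1 letters were present in 2 of the 7 member promoters, both of them of Krt13, and in 7.81% of all 32851 promoters. In the Krt13 promoter shown, they began at position -196, counted from the start. The motif is its own reverse complement apart from N, so a match on both strands is 1 place. ATAAA was present in 4 of the 7, those of Krt7, Krt13, Krt20 and Krt23, and in 5.74% of all promoters. It began at -29 in Krt13, -28 in Krt20 and -31 in Krt23, but at -7 in Krt7, so the count depends on the window. The promoters of Krt8 and Krt18 held neither match in the windows searched. In Krt8, however, the letters ATAAA began at the start site itself, just past the window for that motif. Of the other motifs searched, CCAAT was in 1 of the 7 (37.4% of all promoters), GGGCGG in 1 of the 7 (35.7%) and TGATGNAA, a C/EBP-ATF composite motif, in 0 of the 7 (3.97%), each on both strands. A match is a run of letters and was not tested as a site.

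Levels of different keratins are compared as RPKM, the reads recovered for a gene per kilobase of its length and scaled to the library's depth in M reads. Recovered depth was 25.2 to 48.2 M reads in the 9 cultures and 16.3 to 20.7 M in the 6 tumors. In control cells Krt8 was the most abundant member, at 2728 ± 239 RPKM (SD, n = 3), followed by Krt19 (2166 ± 259) and Krt18 (1881 ± 182). The ranges of Krt19 and Krt18 overlapped. Krt8 ranked 10th among all genes with a length. Krt7 followed at 580 ± 64.1, then Krt20 at 141 ± 1.61, Krt23 at 95.9 ± 4.09, Krt80 at 16.2 ± 1.73 and Krt13 at 7.36 ± 0.240, with no overlap between neighbors. The stratified keratins Krt4 and Krt17 were nearly undetected in culture. Krt4 had 5 reads over the 3 control libraries, 2 over the DON libraries and 0 over the Gln-free libraries. Krt17 had 1 read over all control libraries and 0 in each treated culture, and the limit that 0 reads allows was 0.0322 reads per M reads over the DON libraries and 0.0351 over the Gln-free libraries.

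**Figure D1:**
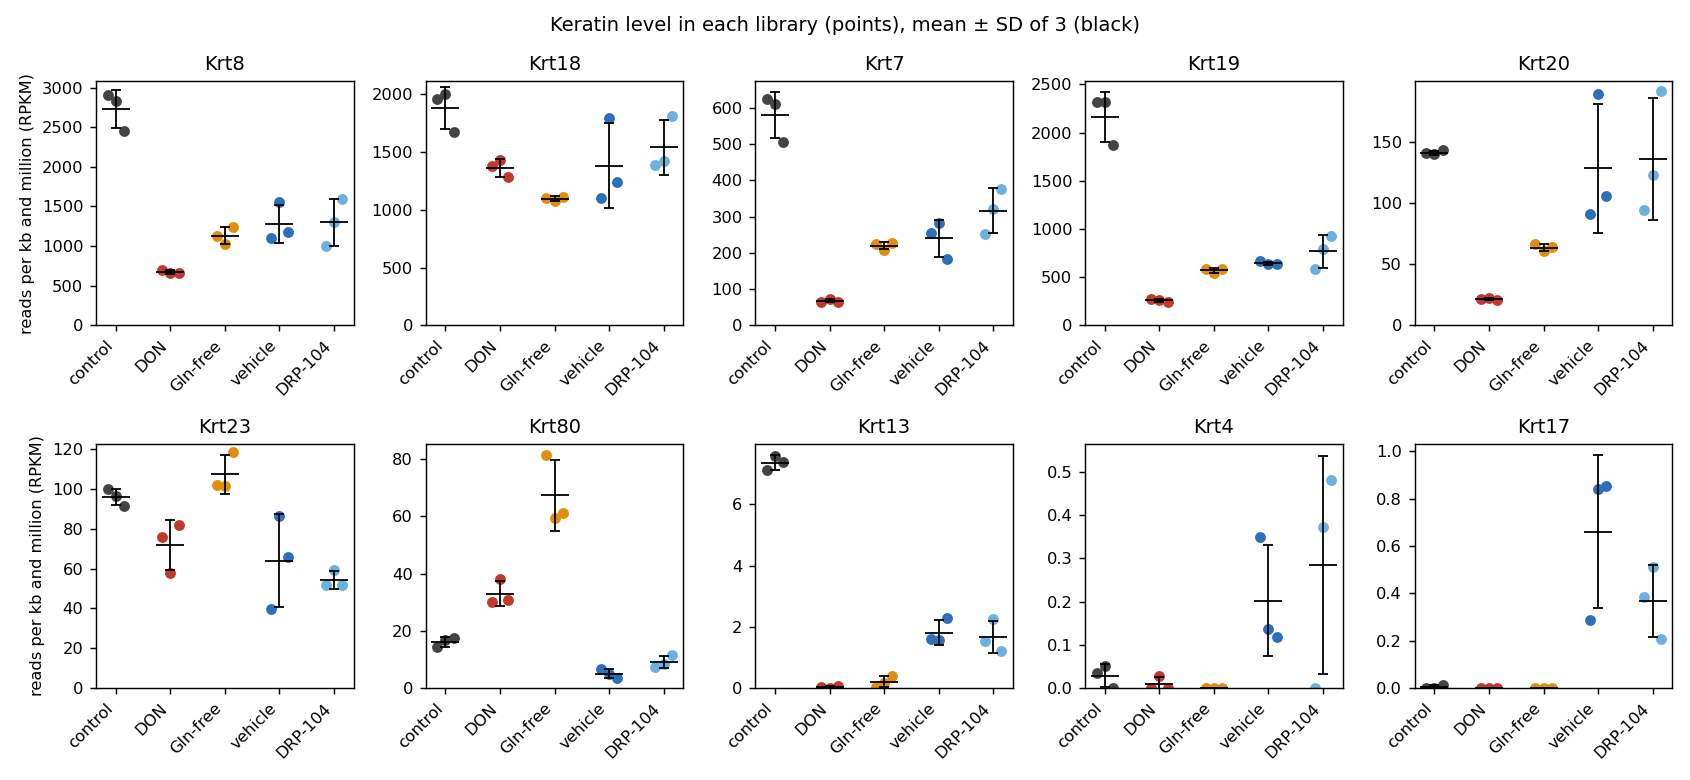
RPKM of each keratin (vertical axes, linear, separate scale per gene) in the 15 libraries, with points for libraries and black bars for the mean ± SD of 3. Krt13 lay between 7.11 and 7.59 in control cells and at or below 0.397 in DON-treated and Gln-free cells, whereas Krt80 was highest in Gln-free cells.

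DON-treated cells held less keratin RNA than control cells in 7 of the 8 members with a mean normalized count of at least 10, the minimum for a fit, and more of 1, Krt80. Normalized counts are the deposited values, in which each library's counts are divided by 1 size factor. Fold changes are limma estimates on log2(normalized count + 1). Over all 13556 genes fitted, 34.7% were called lower and 33.3% higher at a limma adjusted p under 0.05, and nothing is read from the members' counts, since the list was chosen with this comparison in view. In bulk RNA, fewer cells of a kind and less RNA per cell cannot be told apart.

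The member with the lowest estimate after DON was Krt13, the mucosal type I chain. Its normalized counts were 401, 427 and 382 in the control libraries and 2.39, 0 and 3.36 in the DON libraries. Behind these values stood 319, 342 and 588 reads in control cells and 2, 0 and 4 after DON. The groups were far apart and DON library 2 had no read. The log2 fold change was -7.36 (SE 0.479, 95% interval -8.39 to -6.34), and no other gene of the 13556 had a lower one. This estimate depends on the value added before the log, and it ranged from -7.83 to -5.92 over the alternatives tried. From the reads alone, 6 against 1249, Krt13 was 207-fold lower, with an exact binomial interval of 94.7 to 564 that covers counting error only. The interval treats reads as independent and would be too narrow if both mates of a pair were counted.

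The duct pair followed. Krt7 held 87108, 85015 and 64900 normalized counts in control libraries and 8052, 9081 and 8004 in DON libraries, a log2 fold change of -3.23 (SE 0.117). For Krt19 the control libraries held 124491, 124078 and 92047 and the DON libraries 13101, 12533 and 11210, which gave -3.20 (SE 0.124). Control library 3 was the lowest for both genes and still lay far above every DON library. Krt20, the gut-type keratin, held 9229, 9185 and 8624 in control cells and 1252, 1288 and 1168 after DON, which gave -2.87 (SE 0.0865).

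The Krt8 and Krt18 pair differed between its chains. Krt8 held 178542, 173568 and 138598 normalized counts in control cells and 37897, 35699 and 35795 after DON, a log2 fold change of -2.16 (SE 0.118). Krt18 held 93734, 95573 and 73217 and then 58249, 60370 and 53339, a log2 fold change of -0.60 (SE 0.122). Krt23 was close to Krt18 in size, at -0.57 (SE 0.120), with control libraries between 4483 and 5321 and DON libraries between 2728 and 3812. Krt80 was the exception in direction. It held 859, 1017 and 968 in control cells and 1615, 2032 and 1617 after DON, a log2 fold change of 0.88 (SE 0.116). None of these 8 members had overlapping groups, and over all genes fitted the share without overlap was 71.9%.

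Removal of Gln for the same time was a separate comparison, with the same 3 control libraries, so it is not independent of the DON values. The list was in part selected against these controls, so p-values of members here are descriptive. Of the 8 members fitted, 6 fell, 1 rose and Krt23 did not pass the test (limma, adjusted p under 0.05). Among all 13390 genes tested, 34.9% were called lower and 34.5% higher. The median log2 fold change of the 8 members was -1.32, beside 0.01 over all genes. Replicates are separate samples by the labels, which do not say whether they were separate cultures, so p-values measure the spread between these samples.

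Krt13 again had the lowest estimate among the members. Its normalized counts on this table's scale were 378, 403 and 368 in control cells and 2.09, 8.26 and 19.0 in Gln-free cells, and 29 reads stood behind the latter. Gln-free library 1 was nearest to the DON libraries and library 3 the farthest from them. The log2 fold change was -5.53 (SE 0.501, limma adjusted p 6.91e-07). Krt13 was selected on a fall from these same control libraries, so this p-value is descriptive. By reads Krt13 was 38.3-fold lower with a counting interval of 26.6 to 57.5. That interval, too, would be too narrow if both mates of a pair were counted. The log2 value was -4.82 without Gln-free library 1 and -6.17 without library 3. Krt19 fell from 117324, 117201 and 88772 normalized counts to 27315, 25045 and 26647, a log2 change of -2.02 (SE 0.114, limma adjusted p 9.73e-09). Krt7, its duct partner, fell by 1.501 on the log2 scale (SE 0.110, limma adjusted p 1.00e-07), with 62591 to 82093 in control and 24939 to 27028 in Gln-free libraries. Both duct keratins were thus lower in every Gln-free library than in any control library, which held for 37.2% of all genes tested.

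Krt8 fell by 1.37 (SE 0.114, limma adjusted p 3.28e-07) and Krt18 by 0.88 (SE 0.106, limma adjusted p 8.60e-06) on the log2 scale. Krt20 fell by 1.26 (SE 0.0786, limma adjusted p 2.54e-08), from 8317 to 8698 normalized counts in control libraries to 3415 to 3779. Krt80 rose, from 809, 960 and 934 normalized counts to 4253, 3090 and 3135, a log2 change of 1.94 (SE 0.126, limma adjusted p 3.45e-08). Gln-free library 1 was the highest of all 15 for this gene. Krt23 had a log2 estimate of 0.05 (95% interval -0.14 to 0.25, limma adjusted p 0.614), and its groups overlapped.

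**Figure D2:**
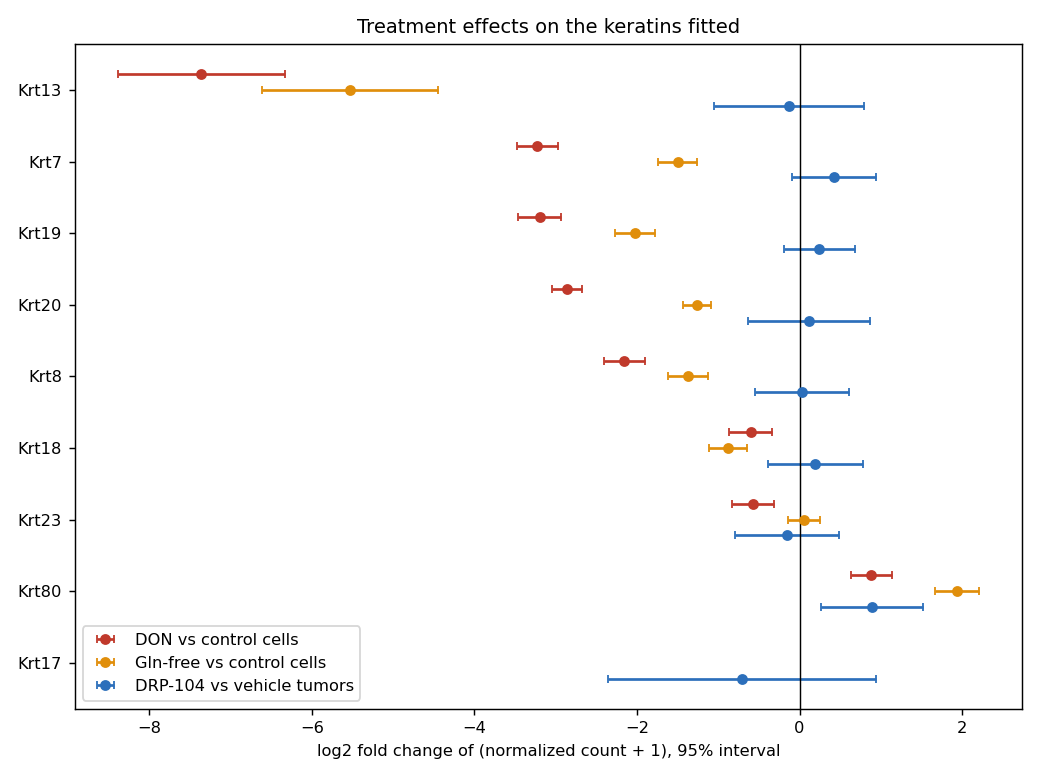
Log2 fold change of (normalized count + 1) with 95% limma interval (horizontal axis) for each keratin fitted (vertical axis) in 3 comparisons. For Krt13 the estimate was -7.36 with DON, -5.53 without Gln and -0.13 with DRP-104 in tumors, and Krt80 lay above 0 in all 3.

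DON-treated and Gln-free cells were also compared directly, on reads of the 9 cultures scaled together. The members were listed with the DON values known, so the differences are given as a description and carry no test. Lower in DON-treated cells than in Gln-free cells were Krt7 (log2 difference -1.69, SE 0.101), Krt20 (-1.58, SE 0.0747), Krt19 (-1.14, SE 0.106) and Krt8 (-0.75, SE 0.102). Krt23 was lower after DON as well (-0.60, SE 0.111). Krt80, which was above control in both, was lower after DON than without Gln (-1.03, SE 0.127). Krt18 alone among the 8 was higher after DON (0.31, SE 0.0990), and quantile normalization brought its difference to 0.0932. Krt13 differed by -1.79 (SE 0.634). Leaving out 1 library moved that value to between -2.50 (without Gln-free library 1) and -1.15 (without DON library 2, and likewise without Gln-free library 3). Of all 13514 genes, 32.3% were called lower and 31.0% higher (limma, adjusted p under 0.05), and nothing is read from the members' counts.

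The unequal changes altered the makeup of the keratin pool. The ratio of Krt8 to Krt18 by RPKM was 1.48, 1.41 and 1.47 in control cells, 0.505, 0.459 and 0.521 after DON, and 1.02, 0.956 and 1.12 without Gln. The 3 culture groups did not overlap. The ratio of summed type II to summed type I RPKM was 0.775 ± 0.0166 in control, 0.452 ± 0.0188 in DON-treated and 0.771 ± 0.0447 in Gln-free cells (SD, n = 3). The DON libraries were thus below all others on this ratio, and the control and Gln-free libraries overlapped. Krt18 supplied 43.8% of type I RPKM in control cells, 79.4% after DON and 59.6% without Gln, and Krt19 supplied 50.4%, 15.1% and 31.1%. The ratio of Krt7 to Krt19, by contrast, was 0.268 ± 0.00396 in control and 0.263 ± 0.0234 in DON-treated cells, with overlap, and 0.385 ± 0.00501 in Gln-free cells, above both. The 10 keratins took 1.23 to 1.47% of all reads in control libraries, 0.387 to 0.412% after DON and 0.545 to 0.607% without Gln.

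**Figure D3:**
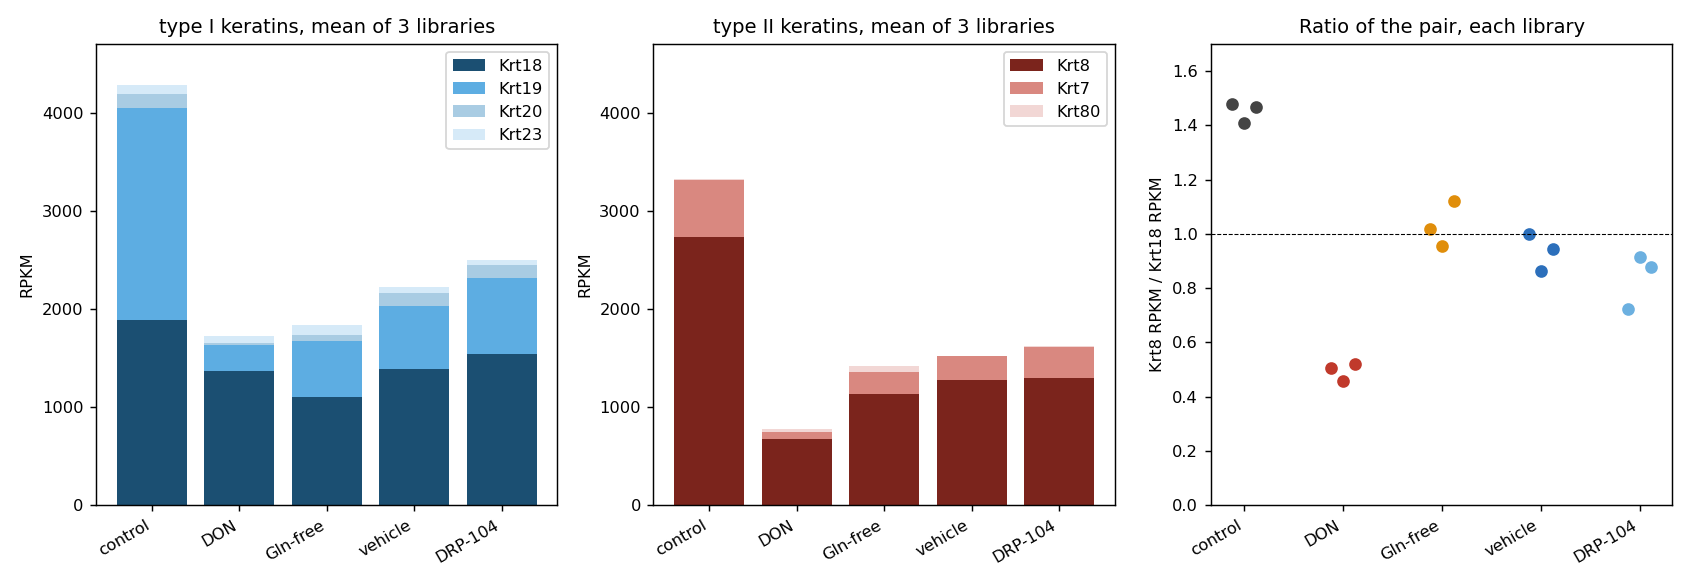
Stacked mean RPKM of type I and type II keratins per group (left and middle, n = 3 libraries each, members under 10 RPKM in every group omitted), and the Krt8 to Krt18 ratio in each library (right). The ratio lay between 1.41 and 1.48 in control cells and between 0.459 and 0.521 in DON-treated cells.

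In tumors, no keratin passed the test for DRP-104 against vehicle (limma, 0 of 9 fitted). The same held for all genes: 0 of 15454 were called (0.0%), 775 had an unadjusted p under 0.05, edgeR on recovered reads called 0 and DESeq2 called 70, with no member among them. The estimate was above 0 for 6 members and below 0 for 3. With 3 against 3, the smallest p of a two-sided exact permutation test is 0.1.

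Krt80 was the only member fitted whose groups did not overlap in the normalized counts. Its normalized counts were 211, 165 and 121.3 in vehicle and 260, 283 and 373 in DRP-104 tumors, so every treated tumor lay above every vehicle tumor. The log2 difference was 0.89 (SE 0.273, 95% interval 0.27 to 1.52, limma unadjusted p 0.0111, adjusted p 0.916), with an exact permutation p of 0.1. Of all genes fitted, 4.83% were likewise higher without overlap. In the separate FPKM table of the tumors the groups overlapped for Krt80, at 7.05 ± 0.953 FPKM with vehicle and 8.63 ± 2.84 with DRP-104 (SD, n = 3, exact permutation p 0.5), and the log2 difference was 0.23 (95% interval -0.29 to 0.74). Gm35853, an antisense gene that overlaps Krt80, had 9 to 58 reads in vehicle and 37 to 86 in DRP-104 tumors, where Krt80 had 126 to 236 and 243 to 380, and without strand the 2 cannot be told apart. Krt7 had 18748, 22235 and 14143 in vehicle and 20509, 24717 and 27993 in DRP-104 tumors, with a log2 difference of 0.42 (95% interval -0.09 to 0.94) and overlapping groups. Intervals were -0.20 to 0.68 for Krt19, -0.39 to 0.78 for Krt18, -0.54 to 0.61 for Krt8, -0.64 to 0.86 for Krt20 and -0.80 to 0.49 for Krt23. These intervals leave room for changes of either sign in the last 5 named.

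Krt13 was readily detected in tumors and did not separate the groups. It had 47.4, 50.1 and 71.2 normalized counts in vehicle and 50.3, 70.4 and 36.3 in DRP-104 tumors, with a log2 difference of -0.13 (95% interval -1.05 to 0.79, limma adjusted p 0.980). Krt17, the basal keratin, had 8.04, 25.1 and 25.0 in vehicle and 11.8, 15 and 5.88 in DRP-104 tumors, a log2 difference of -0.71 (95% interval -2.36 to 0.94, limma adjusted p 0.929). The separate FPKM table of the tumors, whose columns could not be tied to single tumors of the count table, ran the other way for Krt17. There it stood at 0.756, 0.560 and 0.349 FPKM in vehicle and 3.32, 2.04 and 1.08 in DRP-104 columns, without overlap (9.6% of genes in that table were higher without overlap). The difference in log2(FPKM + 1) was 0.96 (SE 0.270, limma adjusted p 0.536). The 1 added before the log shrinks the difference at values this low. That table also gave estimates below 0 for Krt7 (-0.10), Krt8 (-0.29), Krt18 (-0.17), Krt19 (-0.18) and Krt20 (-0.34), where the normalized counts gave estimates above 0, and it had no call in 14183 genes. Krt4 was below the minimum for a fit, with 26 reads over the vehicle and 32 over the DRP-104 tumors. Summed fibroblast markers (7 genes) were at 2169 to 4408 RPM (reads of a gene per M reads of the library) in vehicle and 1079 to 1740 in DRP-104 tumors, and summed T cell markers (7 genes) reached 71.97 in DRP-104 tumor 3 against at most 5.46 in the vehicle tumors. Mesothelium, which expresses simple keratins, had markers (7 genes) at 417 to 978 in vehicle, highest in tumor 2, and 445 to 619 in DRP-104 tumors. Control cultures held 442 to 479 of these, mostly as Msln. Acinar markers (8 genes) were at 9.09 to 150 in vehicle, highest in tumor 3, and 10.5 to 53.3 in DRP-104 tumors. Their part in the tumor values was not tested.

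The effect of DRP-104 in tumors and that of DON in cells were set against each other in 1 interaction fit. The DON effect, on which the list was in part selected, enters every such difference, so these values carry no test. The tumor effect was the higher for Krt7 (difference of log2 changes 3.65, SE 0.257), Krt19 (3.44, SE 0.230), Krt20 (2.98, SE 0.357), Krt8 (2.19, SE 0.272) and Krt18 (0.80, SE 0.283). Krt13 differed by 7.23 (SE 0.692) and Krt23 by 0.42 (SE 0.329, 95% interval -0.29 to 1.13). For Krt80 both effects were near 0.9 on the log2 scale in the normalized counts, with a difference of 0.01 (SE 0.287, 95% interval -0.61 to 0.63), while the FPKM table put its tumor effect at 0.23. Of 15070 genes, 19.1% had a higher effect in tumors by limma (adjusted p under 0.05), and nothing is read from the members' counts. Dose, duration, route and the cells present all differed between the settings and cannot be told apart.

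Tumor levels were lower than culture levels for most members. Every vehicle tumor was below every control culture for 6 of the 10 (Krt7, Krt8, Krt13, Krt19, Krt23 and Krt80), the ranges overlapped for Krt18 and Krt20, and Krt4 and Krt17 were higher in tumors. Of 13465 genes with a mean of at least 10, 22.5% were lower and 43.3% higher in tumors without overlap. The median log2 ratio of tumor to culture was -1.10 over the 9 members above that minimum and 0.25 over all genes. Krt17 passed the minimum only through the tumors. Experiment, growth and host cells cannot be told apart here, so no test was made. Even read numbers made up 69.6 to 72.7% of the values from 1 to 20 in cultures and 41.9 to 46.6% in tumors. How reads were counted is not given in the sources used here, and the part of this difference in the levels was not tested.

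Both duct keratins were lower, Krt19 by more than Krt7. Krt19 stood at 664, 635 and 639 RPKM in vehicle tumors against 2317, 2315 and 1867 in control cells, 3.35-fold lower on average, and the vehicle tumors were tight around their mean. The ratio of Krt7 to Krt19 was 0.264 to 0.271 in control cells and 0.285 to 0.446 in vehicle tumors, without overlap. Krt7 was 2.42-fold lower (255, 283 and 182 in tumors) and Krt8 2.14-fold lower (1105, 1554 and 1172). Krt13 was 4.06-fold lower, at 1.59, 1.58 and 2.27 RPKM in vehicle tumors, yet above every Gln-free and DON-treated culture. Krt80 was 3.22-fold lower, at 6.61, 4.85 and 3.61, below all cultures including the controls.

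In vehicle tumors Krt18 (1383 ± 368 RPKM, n = 3) and Krt8 (1277 ± 242) led with overlapping ranges, and Krt19 came after them at 646 ± 15.8. Their Krt8 to Krt18 ratio, 1.00, 0.863 and 0.942, was below that of all control cultures. Krt20 (128 ± 52.8) lay near its control culture level, with vehicle tumor 2 at 189 and the other two at 90.6 and 106. Krt17 had 62 reads over the 3 vehicle tumors against 1 over the control cultures. The ratio of mean RPKM was 148, with a counting interval of 18.2 to 4215 on the ratio of reads. For Krt4, 26 reads against 5 gave a ratio of 7.01 and an interval of 3.33 to 29.4. On the log2 scale that ratio was 2.81, and it was 2.15 without vehicle tumor 1 and 3.54 without control library 2. Both intervals treat reads as independent and would be too narrow if both mates of a pair were counted. Fibroblast markers summed to 15.3 to 19.0 RPM in control cultures, where Dcn, Lum, Postn and Col1a2 were at 0. Most of that sum was Pdgfra, which the cultured cells expressed at 14.6 to 18.2 RPM in control and 36.6 to 37.6 in Gln-free libraries. In vehicle tumors Pdgfra was at 28.8 to 52.4 RPM. Macrophage markers summed to at most 2.90 in control cultures and 229 to 367 in vehicle tumors. The part of host cells in the tumor levels was not tested.

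**Figure D4:**
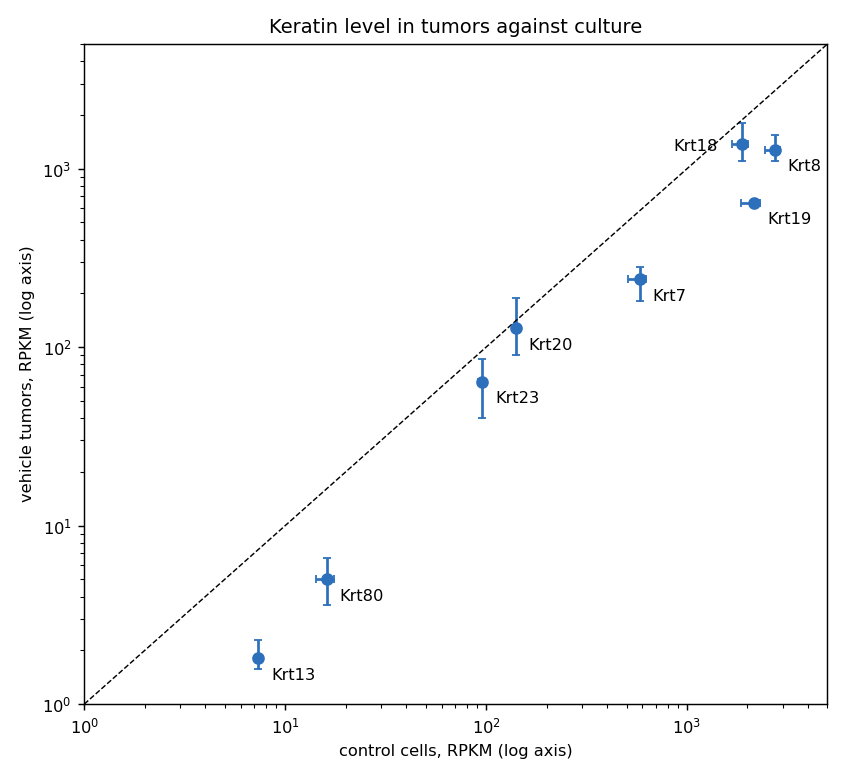
Mean RPKM of 8 keratins in vehicle tumors (vertical, log axis) against control cells (horizontal, log axis), with bars from the lowest to the highest of 3 libraries and a dashed line of equal level. Krt20 lies nearest to the line, and Krt13 (1.81 against 7.36) and Krt19 (646 against 2166) lie well below it. Krt4 and Krt17, nearly absent from culture, are not drawn.

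The remaining keratins were mostly silent. Of 44, 8 had no read in any library and 9 reached a mean of 10 in at least 1 table. Of 8 fitted in the DON comparison, 5 were called lower and 1 higher, where 34.7% of all genes were called lower and 33.3% higher. The most abundant of them, Krt79, a keratin of skin appendages, held 535 ± 75.3 normalized counts in control cells and 35.0 ± 5.23 after DON (SD, n = 3), a log2 change of -3.90. Without Gln it was at 19.9 ± 6.96 against 508 ± 66.2 on that table's scale (-4.66, SE 0.265, limma adjusted p 1.09e-08). In vehicle tumors it stood at 672 ± 329 and in DRP-104 tumors at 788 ± 246 (limma adjusted p 0.937). Krt10, the type I keratin of cornifying epidermis, was higher without Gln (log2 0.88, SE 0.189, limma adjusted p 0.00105) and after DON (0.97). Krt15, Krt36 and Krt78 fell without Gln and Krt39 rose, and all had low counts, the highest mean in control cells being 32.7 (Krt36). Krt87 did not pass without Gln (log2 -0.75, limma adjusted p 0.0666), and Krt14 (84.2 ± 25.6 in vehicle tumors), Krt16 (13.1 ± 8.28) and Krt87 (91.8 ± 78.2) were not called with DRP-104. The pseudogene copy Krt8-ps held 127 to 228 reads per control library and 30 to 50 per DON library, against 31747 or more for Krt8 in each culture, and how reads that fit both were assigned is not known. Antisense genes overlap Krt7 (Gm671, at most 34 reads per library) and Krt80 (Gm35853). The lincRNA gene Gm36026 overlaps Krt8 on the opposite strand, with 31 to 85 reads per control and 4 to 13 per DON library. Mir1941, on the strand opposite to Krt80, had at most 3 reads per library. The use of strand in counting is not given in the sources used here.

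Genes that attach keratin filaments to desmosomes and hemidesmosomes were counted as a list of 18. This list and those below were chosen with earlier results of these data known, so their counts and p-values are descriptive. Without Gln, 13 of 18 fell, 2 rose and 3 did not pass, with a median log2 change of -0.80 beside 0.01 over all genes. Of all genes tested there, 34.9% were called lower and 34.5% higher. Ppl (periplakin) fell from 4160 ± 160 to 525 ± 20.3 normalized counts (log2 -2.99, SE 0.0883, limma adjusted p 8.07e-11), Itgb4 (integrin β4 of hemidesmosomes) by 1.96 (SE 0.0966, limma adjusted p 3.38e-09) and Jup (plakoglobin) had a log2 change of -2.13 (SE 0.113, limma adjusted p 5.79e-09). After DON, 15 of 17 fitted were called lower and 1 higher, led by Ppl (-2.93), Itgb4 (-3.18) and Pkp2 (plakophilin 2, -3.02). The shares over all genes were 34.7% lower and 33.3% higher. None of 18 was called with DRP-104, and the median there was 0.37. The smallest adjusted p, 0.916, was shared by Dsg2 (log2 0.79), Pkp3 (0.61) and Eppk1 (1.60).

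Other epithelial lists were counted in the same way. Beside the counts below, 34.9% of all genes were called lower and 34.5% higher without Gln. After DON the shares were 34.7% lower and 33.3% higher. Of 14 epithelial surface genes, 10 were fitted in culture. Without Gln 7 fell and none rose, among them Muc1, a membrane mucin (log2 -3.45, limma adjusted p 6.73e-11), Lgals4 (-3.39, limma adjusted p 3.55e-10) and the adherens junction protein Cdh1 (-1.38, limma adjusted p 1.54e-08). After DON 8 of 10 were called lower, among them Ocln (-3.00), Muc1 (-2.32) and Cdh1 (-1.73). In tumors against culture, 7 of 13 of these surface genes were higher without overlap and 3 lower. Over all genes the shares were 43.3% higher and 22.5% lower. Their median log2 ratio was 1.48, where the keratin members had -1.10 and all genes 0.25. More of the list passed the minimum here than in culture, so some may have passed only through the tumors, which raises the count and the median. No difference from the keratins is read from them. Of 15 epithelial transcription factors, 10 were fitted, of which 6 rose and 4 fell without Gln. Elf3 fell (-2.21, limma adjusted p 3.84e-09) while Foxa1 (2.11, limma adjusted p 6.79e-09) and Klf5 (1.44, limma adjusted p 8.31e-09) rose. After DON, 3 were called higher and 5 lower, with Elf3 at -3.72 and Cdx2 at -2.68. Of 18 squamous and cornified genes, 8 were fitted without Gln, of which 6 fell and 1 rose, with Ivl (involucrin) at -4.88 (limma adjusted p 2.44e-09), S100a14 at -2.61 (limma adjusted p 2.06e-07) and Sprr1a at -1.82 (limma adjusted p 2.03e-08). After DON 4 of 9 were called higher and 4 lower, with Ivl at -4.61, Sprr1a at -3.58 and S100a14 at -1.77. Of 14 other intermediate filament genes, 9 were fitted without Gln, of which 5 fell and 3 rose. Vim (vimentin, the mesenchymal filament) fell by 0.85 (SE 0.0990, limma adjusted p 6.32e-06), and the lamin Lmnb1 (-1.49, limma adjusted p 2.08e-08) and Synm (-2.72, limma adjusted p 4.61e-05) were lower as well. After DON 6 of 9 were called lower and 1 higher, with Lmnb1 at -1.97, Nes at -1.81 and Lmna at -1.03. No gene of these lists was called with DRP-104 by limma. Those with the smallest adjusted p (0.916 each) were St14 (1.31), Cldn3 (0.94) and Epcam (0.91) on the surface list, Ehf (1.51), Grhl3 (1.52) and Cdx2 (0.57) among the factors, Lor (-1.96), Tgm1 (-1.84) and S100a14 (1.11) among the squamous genes, and Des (-0.78), Nes (-0.52) and Lmna (-0.33) among the filaments, all as log2 differences.

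The 5 genes whose pattern lay nearest to that of Krt13 were Kbtbd11, Itgb3, Dhrs3, Ivl and Ndrg2. Likeness was the root mean square difference of centered log2 values over the 15 libraries, scaled together, among 10884 genes. It was 0.839 for Kbtbd11, 1.01 for Itgb3, 1.16 for Dhrs3, 1.19 for Ivl and 1.22 for Ndrg2, where the Krt13 profile itself had an SD of 2.65. Kbtbd11 averaged 3268 scaled counts in control, 42.0 in DON-treated and 173 in Gln-free cells, and 2178 and 2239 in vehicle and DRP-104 tumors. Ivl, the cornified envelope precursor, averaged 2544, 113 and 90.4 in the cultures and 3584 and 2525 in the tumors. Among the listed members that were ranked, Krt20 (rank 253), Krt7 (278) and Krt19 (300) were nearest to Krt13, and Krt80 (rank 10680) was among the farthest. Ranks of keratins outside the list, Krt79 among them, were not drawn up, so a nearer keratin may exist.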

How the data were processed

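RNA-seq was analyzed for 15 samples in 5 groups of 3 (9 cultures, 6 tumors). Per the methods, libraries, HISAT2 alignment and DESeq2 were done by Novogene. Per the labels, the submitters' processing notes also name GRCm39, CASAVA and STAR 2.5. Counting tool and strand setting are not given in the sources used here. The deposited signal in the 3 tables is the gene count divided by 1 size factor per library within each table. The deposited FPKM values, scaled by the authors for gene length and depth, cover tumors only. A duplicate of the tumor table was not used.

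The members and gene lists were chosen with earlier results of these data known. The rule for named genes took all 10 members, the other keratins with a mean of at least 10, the 3 genes of each list with the smallest adjusted p in a comparison, and the 5 genes nearest to Krt13.

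Whole reads were recovered from each column (tolerance 0.0051), and at least 99.99% of values came out whole. In R 4.3.3, limma 3.58.1 (moderated test with a mean-variance trend) was fitted to log2(value + 1) of genes with a mean of at least 10. For the FPKM values the minimum mean was 0.5. Benjamini-Hochberg adjustment ran over all genes, with a threshold of 0.05. For DON against Gln-free cells, reads of all cultures were scaled by median-of-ratios size factors, and tumor and DON effects were set against each other by an interaction contrast. RPKM used the gene lengths of the FPKM table. Counting intervals are exact binomial at 95%, and the limit for 0 reads is 3 reads over the group. Reads carry no molecular identifiers, so both cover counting error only. Alternatives were edgeR 4.0.16 and DESeq2 1.42.0 on recovered reads, quantile normalization, other pseudocounts and minimums, the FPKM table, a replicate block and leaving out each library. The limma step was tested on simulated data of each comparison. It called 97% of genes changed 4-fold for DON (13585 genes), 98% without Gln (13373), 96% for DRP-104 (15445), 99% for DON against Gln-free cells (13508) and 87% for the interaction (15217). Unchanged genes made up 4.5%, 6.37%, 4.03%, 3.52% and 2.91% of the calls in that order. The simulations changed few genes, whereas most genes were called in the real culture comparisons. An allele of the line and the value of 1 listed gene are not reported here.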

Additional observations from a re-analysis of the deposited data

Results flagged for a closer look

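For 5 keratins the effect of DRP-104 in tumors and that of DON in cells stood apart in the interaction fit. The members were in part selected on the DON effect, which enters each difference, so these are values without a test. The 5 are those under the limma threshold, Krt13 aside, and 19.1% of all 15070 genes passed it with the higher effect in tumors. Nothing is read from the count, and Krt18 fell short of the threshold in 11 of 19 alternatives. The difference of log2 changes was 3.65 for Krt7, 3.44 for Krt19, 2.98 for Krt20, 2.19 for Krt8 and 0.80 for Krt18, each with the tumor effect the higher. Krt17 was higher in all 3 DRP-104 columns of the FPKM table than in all 3 vehicle columns, with a mean of 2.15 ± 1.12 against 0.555 ± 0.203 FPKM (SD, n = 3, exact permutation p 0.1, the smallest these data allow). In the normalized counts Krt17 overlapped between the groups, with a log2 difference of -0.71.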

How the results depend on the processing

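The number of members called without Gln, 7, and the 6 members lower in every vehicle tumor than in every control culture stayed within 1.5 times under every alternative run, and the 7 called without Gln kept their calls under its 13 alternatives. The control libraries in these comparisons also entered the selection of Krt13, so the counts are descriptive. No member was called for DRP-104 by limma. Calls that involve the DON libraries carry no weight for the members, which were chosen in part on them. Where the FPKM table replaced the normalized counts, the DRP-104 estimate turned to 0.96 for Krt17, -0.17 for Krt18, -0.18 for Krt19, -0.34 for Krt20, -0.10 for Krt7 and -0.29 for Krt8, with no call. The Krt80 interaction, near 0, was -0.0348 with DESeq2, -0.0306 with edgeR and -0.0022 with a pseudocount of 5. Leaving out 1 library moved it from -0.19 to 0.20, and moved the DRP-104 estimates from -0.37 to 0.10 (Krt13), -0.13 to 0.45 (Krt20), -0.49 to 0.11 (Krt23) and -0.10 to 0.20 (Krt8), all not called. It moved Krt23 without Gln from -0.0131 to 0.10 and the log2 tumor to culture ratio of Krt20 from -0.52 to 0.0595. The cause of these turns was not tested.

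Control cultures could not be matched to replicate numbers, so no replicate block was run for comparisons with them. Numbers did not pair samples: deviations of same-numbered libraries had r from -0.03 to 0.08 (DON and Gln-free cells) and from -0.36 to 0.04 (tumors). With the replicate block 0 of 9 members were called for DRP-104, and 7 of 7 in DON and Gln-free cells alone, where Krt13 was not fitted. The same 2 groups without the block, an alternative chosen after seeing the data, also gave 7 of 7. Over all 13383 genes fitted, the block moved calls there from 9207 to 9237. With most genes called and the DON libraries involved, nothing is read from the members' counts. DESeq2 called 70 genes for DRP-104, against 0 by limma. Under quantile normalization the median of all genes was 0.13 with DON (0.02 as deposited) and -0.13 in the interaction (-0.02). Krt4 and Krt17, with 5 and 1 reads in control cultures, could not be compared between cultures at this depth.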
